A study of Mus musculus with 6 samples.

Results

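The genes described here make, carry and sense retinoic acid, the acid form of vitamin A. They are the retinaldehyde dehydrogenases Aldh1a1, Aldh1a2 and Aldh1a3, the retinoic acid receptors Rara, Rarb and Rarg, and the retinoid-binding proteins Crabp1, Crabp2 and Rbp2. The 9 genes were chosen by symbol among the 27546 genes of the table, and each has 1 row. In colons of Gm31629-/- mice after dextran sulfate sodium (DSS), Aldh1a1 was 6.05-fold lower than in WT colons, whereas Aldh1a2 was 12.9-fold higher. Both are ratios of mean FPKM. Crabp1 was at 0 in each WT mouse, and its summed fragments in Gm31629-/- mice were at least 18.0-fold above a floor of 3 fragments for the WT group. Aldh1a3 reached the highest level of any retinaldehyde dehydrogenase in 2 of 3 Gm31629-/- mice, but its difference between genotypes did not pass the test. Rara and Rarg differed by less than the spread between mice.

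RNA-Seq was carried out on colon tissue of 3 Gm31629-/- mice and 3 littermate WT mice, with 1 library per mouse. Gm31629 is a long noncoding RNA of intestinal epithelial cells, and the study asked what its loss does to the colon during colitis. Gm31629-/- mice lack a stretch of Gm31629 on chromosome 1, and both groups were of the C57BL/6 strain by the labels (C57BL/6J in the methods). Both groups were 8 weeks old, drank 3% DSS (a polymer that injures the colonic epithelium) for 7 days and were killed on day 8, so there was no group without DSS. According to the methods, RNA of the mice was pooled, whereas the table has a column for each mouse, and the columns were treated here as separate mice. Among the Gm31629-/- columns, only mouse 1 held Y-linked transcripts and only mouse 3 held high pancreatic genes (both given below). These 3 columns are thus not repeats of 1 pool. For the WT columns this could not be settled. If the WT columns are repeats of 1 pool, their spread is only technical and the p-values leave out that between WT mice.

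Values are FPKM, fragments divided by gene length and by library depth, so levels can be compared between genes. The libraries held 18006000 to 18795100 fragments as recovered from the values. Gm31629 itself has no row, so the genotype labels could not be checked on it. Only the library of Gm31629-/- mouse 1 held Y-linked transcripts, with 9.27 FPKM of Ddx3y against 0 in the other 5, and its Xist level was 0.00606 FPKM against 8.35 to 13.8. The other 5 libraries thus go against the methods, which describe males. Sex and genotype are partly mixed, and each of the 7 tested genes is given below with and without mouse 1. Colon markers were present in each library, with Car1 at 509 to 5459 FPKM, but genes that mark gut regions differed between genotypes. Hoxd13, a gene of the hindgut, was at 0 in each WT mouse and at 8.12 to 19.2 FPKM in Gm31629-/- mice. Of 12 genes typical of small intestinal enterocytes, 8 were tested, 4 were lower and 1 was higher, and Alpi was at 40.8 to 55.7 FPKM in WT and 0.510 to 8.23 FPKM in Gm31629-/- mice. Lct and Apoa4 of that list were at or near 0 throughout (at most 0.0599 FPKM). The tissues also differed in makeup. All 12 smooth muscle markers were higher in Gm31629-/- mice, with a summed level of 1610 to 2625 FPKM against 28.3 to 54.3 in WT mice, and so were all 12 fibroblast markers, at 293 to 860 against 30.3 to 54.2 FPKM. Of 15 epithelial markers, 7 were lower and 0 higher by limma (8 and 1 at an unadjusted p under 0.05), with a summed level of 8094 to 9589 FPKM against 12973 to 14171. In bulk tissue, fewer cells of a type and less RNA per cell cannot be told apart. The part of tissue makeup in the results below was not tested, beyond the values given beside them.

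Retinol circulates bound to a carrier, enters cells, and is stored as retinyl esters or oxidised to retinaldehyde by retinol dehydrogenases. The retinaldehyde dehydrogenases then make retinoic acid in an irreversible step. Retinoic acid binds retinoic acid receptors, which sit on DNA as partners of the retinoid X receptors, and CYP26 enzymes break it down. In the gut, retinoic acid from epithelial cells, stromal cells and dendritic cells is known for imprinting lymphocytes to home to the intestine and for inducing regulatory T cells and IgA.

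Receptor pairs bind direct repeats of a short half-site, classically with a spacer of 5, 2 or 1 bases. RefSeq (GRCm38.p6) lists promoters for 7 of the 9 genes, 12 promoters in all, each running from 250 bases before to 50 bases after the transcription start. They were searched on both strands for the consensus half-site AGGTCA and for 3 close variants of it, namely AGTTCA, the variant GGGTCA, and the variant GGTTCA. The promoters below are those of the genes whose levels differed most between genotypes, with Cyp26a1, the classical retinoic acid target, for comparison. Each is written 5′ to 3′ on the strand of the gene, with half-sites of either strand in capitals.
Rarb, chr14:16575427-16575726, minus strand: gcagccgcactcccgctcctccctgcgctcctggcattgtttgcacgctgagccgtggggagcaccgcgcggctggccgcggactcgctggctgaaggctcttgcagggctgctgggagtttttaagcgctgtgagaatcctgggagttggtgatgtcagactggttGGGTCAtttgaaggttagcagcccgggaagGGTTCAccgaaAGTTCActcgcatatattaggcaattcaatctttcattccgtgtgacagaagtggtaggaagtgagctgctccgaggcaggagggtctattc
Cyp26a1, chr19:37697558-37697857, plus strand: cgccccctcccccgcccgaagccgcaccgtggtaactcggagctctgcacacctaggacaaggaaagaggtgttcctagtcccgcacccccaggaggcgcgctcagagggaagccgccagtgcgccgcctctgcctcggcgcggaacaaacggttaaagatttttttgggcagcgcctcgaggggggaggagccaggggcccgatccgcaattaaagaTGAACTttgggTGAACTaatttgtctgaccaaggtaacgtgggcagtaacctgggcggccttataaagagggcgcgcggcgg
Aldh1a1, chr19:20601718-20602017, plus strand: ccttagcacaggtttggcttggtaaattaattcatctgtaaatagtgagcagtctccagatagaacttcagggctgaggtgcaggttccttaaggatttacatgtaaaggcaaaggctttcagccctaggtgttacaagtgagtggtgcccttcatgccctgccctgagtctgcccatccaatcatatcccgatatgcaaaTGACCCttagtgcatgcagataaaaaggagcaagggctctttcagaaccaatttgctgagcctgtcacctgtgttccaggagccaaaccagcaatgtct
Aldh1a2, chr9:71215539-71215838, plus strand: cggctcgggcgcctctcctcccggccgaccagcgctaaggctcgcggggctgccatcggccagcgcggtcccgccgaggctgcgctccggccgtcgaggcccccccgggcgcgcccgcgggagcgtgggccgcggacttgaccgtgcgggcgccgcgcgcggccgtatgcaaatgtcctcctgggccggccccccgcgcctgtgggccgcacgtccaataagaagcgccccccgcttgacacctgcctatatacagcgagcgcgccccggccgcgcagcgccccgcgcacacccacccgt
Crabp1, chr9:54764498-54764797, plus strand: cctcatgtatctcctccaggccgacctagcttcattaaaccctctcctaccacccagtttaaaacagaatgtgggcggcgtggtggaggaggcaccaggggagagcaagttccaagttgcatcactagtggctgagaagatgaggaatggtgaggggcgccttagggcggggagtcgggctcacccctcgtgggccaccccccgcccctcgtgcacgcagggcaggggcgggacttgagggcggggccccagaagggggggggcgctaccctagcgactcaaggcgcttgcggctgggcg

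The Rarb promoter holds a direct repeat with a spacer of 5 bases that begins 53 bases before the start, and a further half-site 83 bases before it. In the Cyp26a1 promoter, such a repeat lies on the opposite strand, and its first base in the printed sequence is 32 bases before the start. A repeat with this spacer occurs in 32 of 32851 listed promoters, or 0.0974%, and among those of the 9 genes only in that of Rarb. The printed Aldh1a1 promoter has a single half-site on the opposite strand, 49 bases before the start, and its other listed promoter has none. A single half-site is common, in 43.7% of all listed promoters. None of these letters occur in the Aldh1a2 and Crabp1 windows. The Aldh1a2 window is rich in G and C (78.0%), as is that of Crabp1 (65.0%), against a median of 52.7% over all listed promoters. These matches are a description of letters, and binding was not measured.

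Of the 9 genes, 7 passed the filter on low values (a mean of at least 0.5 FPKM over the 6 libraries), and Rarb and Crabp2 did not. Genotypes were compared with limma on log2(FPKM + 1), p was adjusted over all 14657 genes tested by Benjamini and Hochberg, and a gene was called at an adjusted p under 0.05. Aldh1a2 and Crabp1 were called higher in Gm31629-/- mice and Aldh1a1 lower, and 4 genes were not called. Over all genes tested, 43.5% were called, 28.9% higher and 14.6% lower. The 3 of 7 called is thus a share close to that background. Each of the 3 called genes changed by more than 1 on the log2 scale, which 18.4% of all tested genes did as higher calls and 4.64% as lower calls. Aldh1a3 (1.75) and Rbp2 (1.05) also changed by more than 1 but were not called. The 3 called genes were also the 3 of 7 whose groups did not overlap, as against 57.8% of all tested genes. Of the 3, Aldh1a2 and Crabp1 passed the filter only through the Gm31629-/- group, which favours a higher call, so these counts are descriptions. Among the 5 tested genes with a WT mean of at least 0.5 FPKM, 0 were called higher and 1 was called lower. A limit on the WT mean alone favours a lower call in turn, and the share over all genes under it was not computed. The median log2 fold change of all tested genes was 0.15, and 66.5% of calls were higher, a share that was 49.9% after median ratio scaling of the libraries. That scaling moved the median by -0.20, and scaling to the 15 epithelial markers moved it by 0.47.

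**Figure D1:**
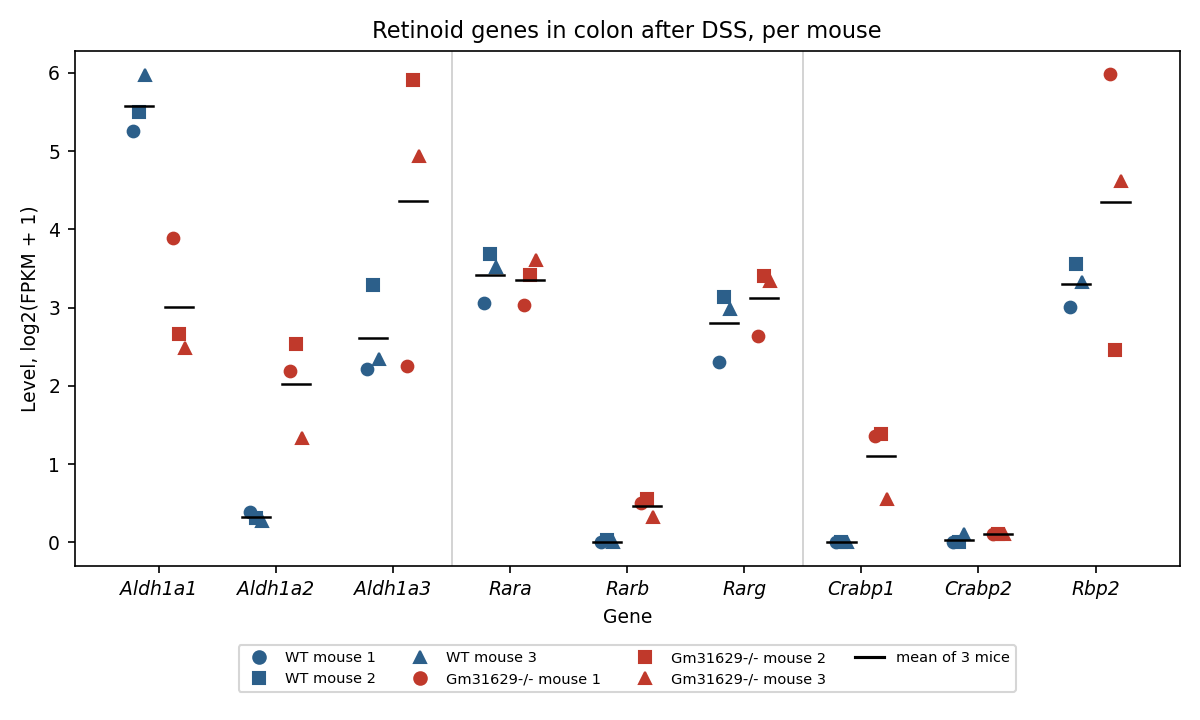
Level of each of the 9 genes in each mouse, as log2(FPKM + 1), with WT mice in blue, Gm31629-/- mice in red, a symbol for each mouse and a bar at the mean of 3 mice. Aldh1a1 is lower and Aldh1a2, Rarb and Crabp1 are higher in each Gm31629-/- mouse than in any WT mouse, whereas Aldh1a3 and Rbp2 spread widely among Gm31629-/- mice.

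Aldh1a1 (ENSMUSG00000053279, chromosome 19, 20492715 to 20643465, plus strand, GRCm38) encodes the retinaldehyde dehydrogenase typical of epithelium. Its level was 37.4, 44.3 and 61.8 FPKM in WT mice 1 to 3 and 13.8, 5.33 and 4.59 FPKM in Gm31629-/- mice 1 to 3. The groups did not overlap, and the highest Gm31629-/- value was that of mouse 1. The means were 47.8 ± 12.6 (WT) and 7.91 ± 5.13 FPKM (n = 3, SD). The log2 fold change was -2.57 with a standard error of 0.38 (95% interval -3.47 to -1.67, limma adjusted p = 0.00245). Relative to the median of all genes the log2 fold change was -2.71, and -2.76 and -2.61 under median ratio and epithelial scaling. Without mouse 1, it was -3.01 (limma adjusted p = 0.000445). The call held in 6 of 6 fits that left out 1 mouse. Krt8, the most abundant epithelial marker, had a log2 fold change of -1.05 in the same libraries, and Epcam one of 0.01. With libraries scaled to the epithelial markers, the log2 fold change of Aldh1a1 was -1.99 (limma adjusted p = 0.00413).

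Among all tested genes, the 3 whose log2 levels were most like those of Aldh1a1 over the 6 libraries were Hkdc1 (Pearson r = 0.9960), Msra (0.9949) and Slc35d1 (0.9948). Hkdc1, which encodes a hexokinase-like protein, was 16.1, 23.8 and 26.6 FPKM in WT mice and 3.81, 0.211 and 0.223 FPKM in Gm31629-/- mice. As for Aldh1a1, the value of Gm31629-/- mouse 1 lay between those of the other Gm31629-/- mice and the WT mice. Msra, a methionine sulfoxide reductase, and Slc35d1, a nucleotide-sugar transporter, had log2 fold changes of -1.44 and -1.73. These correlations share the 6 libraries and the genotype difference and are descriptions only.

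Aldh1a2 (ENSMUSG00000013584, chromosome 9, 71215789 to 71296243, plus strand) encodes the enzyme known from mesenchyme, mesothelium and dendritic cells. It was at 0.310, 0.245 and 0.212 FPKM in WT mice and at 3.58, 4.79 and 1.51 FPKM in Gm31629-/- mice. Each Gm31629-/- mouse was above each WT mouse. The WT values rest on 13, 10 and 9 fragments and the Gm31629-/- values on 149, 200 and 63. The means were 0.256 ± 0.0503 and 3.29 ± 1.65 FPKM (n = 3, SD). On the log2(FPKM + 1) scale, which understates the change of low genes, the fold change was 1.69 with a standard error of 0.30 (95% interval 0.98 to 2.40, limma adjusted p = 0.00479). Without mouse 1 it was 1.60 (limma adjusted p = 0.0123). The gene passed the filter only through the Gm31629-/- group. A test against a log2 fold change of 1 gave a limma adjusted p of 0.253.

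Marker lists of the cell types known to express Aldh1a2 moved as follows. The summed level of the fibroblast markers was 293, 860 and 552 FPKM in Gm31629-/- mice 1 to 3. The mesothelial sum was 74.1, 114 and 44.1 FPKM, against 39.3 to 42.0 FPKM in WT mice, with 4 of 6 tested markers higher and 1 lower. Most of the WT sum was Krt7, at 35.8 to 38.8 FPKM, which epithelium also expresses and which was the lower marker. Msln was at 0.537 to 1.05 FPKM in WT mice and at 2.70 to 24.5 FPKM in Gm31629-/- mice. Wt1, a defining mesothelial gene, was at 0 in each WT mouse and at 0.71, 1.27 and 0.01 FPKM in Gm31629-/- mice. The order of the Gm31629-/- mice in Aldh1a2 and in the mesothelial sum was the same, with mouse 2 highest and mouse 3 lowest. That order was not particular to mesothelium. It was also that of the summed markers of dendritic cells (64.7, 76.9 and 51.9 FPKM in mice 1 to 3) and adipocytes (240, 547 and 163 FPKM). The markers of enteric neurons and glia had it as well (151, 244 and 58.7 FPKM), whereas the fibroblast sum was lowest in mouse 1. Dendritic cell markers summed to 51.9 to 76.9 FPKM against 36.1 to 86.7 FPKM, with 4 of 7 tested markers higher and 1 lower. That lower marker, Irf8, made up most of the WT sum, at 30.1 to 73.2 FPKM. The others called rose, such as Itgax (7.17-fold) and Ccr7 (13.1-fold, ratios of mean FPKM). The part of these cells in the level of Aldh1a2 was not tested.

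Aldh1a3 (ENSMUSG00000015134, chromosome 7, 66390890 to 66427517, minus strand) encodes the third enzyme of the family. Its level was 3.65, 8.76 and 4.08 FPKM in WT mice and 3.77, 59.1 and 29.7 FPKM in Gm31629-/- mice. Gm31629-/- mice 2 and 3 were above each WT mouse, and mouse 1 lay within the WT range. The means were 5.50 ± 2.83 and 30.8 ± 27.7 FPKM (n = 3, SD). With a log2 fold change of 1.75 and a standard error of 0.86, the interval ran from -0.28 to 3.78 and the gene was not called (limma adjusted p = 0.138). Of the 6 fits that left out 1 mouse, only that without mouse 1 called the gene (log2 fold change 2.81, limma adjusted p = 0.0033). Leaving out the only Gm31629-/- value in the WT range separates the groups by that choice. Without mouse 2 the log2 fold change was 0.98 (limma adjusted p = 0.344). Mouse 1 is also the mouse with Y-linked transcripts, and whether its sex bears on the level was not tested.

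The balance within the family differed between genotypes. Aldh1a1 made up 90.4%, 83.1% and 93.5% of the summed FPKM of the 3 genes in WT mice. In Gm31629-/- mice its share was 65.3%, 7.70% and 12.8%, below that in each WT mouse. The share of Aldh1a3 was 8.84%, 16.4% and 6.17% in WT mice, as against 17.8%, 85.4% and 82.9% in Gm31629-/- mice. Aldh1a2 never passed 0.751% in WT mice and made up 16.9%, 6.92% and 4.24% in Gm31629-/- mice. An exact two-sided permutation test over mice gave p = 0.1 for each of these shares, the smallest that 3 against 3 mice allow. The 3 shares of a mouse sum to 100% and are not independent. The summed level itself was 41.3, 53.3 and 66.1 FPKM in WT mice and 21.2, 69.2 and 35.8 FPKM in Gm31629-/- mice. These sums overlapped (exact permutation test, p = 0.5), with Gm31629-/- mouse 2 the highest of all.

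**Figure D2:**
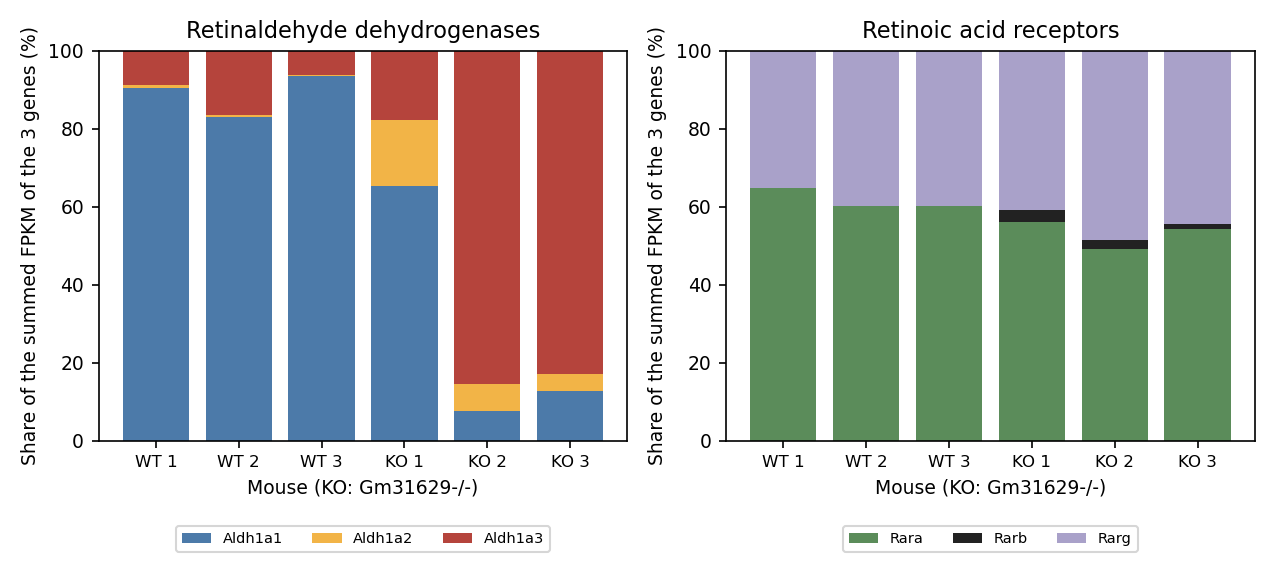
Share of each gene in the summed FPKM of its family, in percent, for the retinaldehyde dehydrogenases (left) and the retinoic acid receptors (right), with a bar for each mouse (KO, Gm31629-/-). Aldh1a1 fills 83.1% to 93.5% of the WT bars and Aldh1a3 85.4% and 82.9% of those of Gm31629-/- mice 2 and 3, whereas Rara fills 49.2% to 64.9% of each receptor bar.

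Of the receptors, neither Rara nor Rarg was called, also at an unadjusted p under 0.05 or by voom on recovered fragments (0 of 2). Rara (ENSMUSG00000037992, chromosome 11, 98927818 to 98974942, plus strand) was at 7.33, 11.8 and 10.4 FPKM in WT mice and 7.18, 9.72 and 11.2 FPKM in Gm31629-/- mice. The groups overlapped, and WT mouse 2 was the highest of all. The log2 fold change was -0.07 (95% interval -0.60 to 0.47, limma adjusted p = 0.832), and its sign was positive without Gm31629-/- mouse 1 (0.09), without WT mouse 2 (0.07) and with epithelial scaling (0.50). Rarg (ENSMUSG00000001288, chromosome 15, 102234938 to 102257517, minus strand) was at 3.96, 7.81 and 6.90 FPKM in WT mice and 5.22, 9.57 and 9.17 FPKM in Gm31629-/- mice. The groups overlapped, with a log2 fold change of 0.32 (95% interval -0.37 to 1.01, limma adjusted p = 0.408). Without mouse 1 it was 0.56 (limma adjusted p = 0.139). Under epithelial scaling Rarg was called (log2 fold change 0.86, limma adjusted p = 0.0421), and relative to the median of all genes the value was then 0.24. Within a mouse, the ratio of Rarg to Rara was 0.540, 0.660 and 0.661 in the WT group, against 0.727, 0.985 and 0.821 in Gm31629-/- mice. It was higher in each Gm31629-/- mouse than in any WT mouse (exact permutation test, p = 0.1, the smallest possible).

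Rarb (ENSMUSG00000017491, chromosome 14, 16430839 to 16819156, minus strand) encodes the receptor that is itself a classical target of retinoic acid, and its promoter with the direct repeat is printed above. It was at 0, 0.0211 and 0 FPKM in WT mice and at 0.423, 0.473 and 0.258 FPKM in Gm31629-/- mice. Rarb was thus near the floor in WT mice and low but above it in each Gm31629-/- mouse. The values rest on 2 fragments in all WT mice together and on 41, 46 and 25 in Gm31629-/- mice. From the summed fragments the ratio was 56.1, with a counting interval of 15.2 to 469 (95%, exact) that leaves out the spread between mice. With a mean of 0.196 FPKM, the gene was below the filter. In a fit without the filter, its log2 fold change was 0.46 with a standard error of 0.07 (limma adjusted p = 0.00784). The gene shares its 3′ end with Top2b of the opposite strand and overlaps the antisense gene Gm48162, and the strand setting of the counting is not given in the sources used here. Rarb made up 3.30%, 2.39% and 1.26% of the summed receptor FPKM in Gm31629-/- mice and at most 0.107% in WT mice. Summed receptor levels were 11.3, 19.7 and 17.3 FPKM in WT and 12.8, 19.8 and 20.6 FPKM in Gm31629-/- mice (exact permutation test, p = 0.5).

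The binding proteins behaved unlike each other. Crabp1 (ENSMUSG00000032291, chromosome 9, 54764748 to 54773110, plus strand), a cytosolic protein that holds retinoic acid, was at 0 in each WT mouse and at 1.56, 1.62 and 0.475 FPKM in Gm31629-/- mice. The Gm31629-/- values rest on 23, 24 and 7 fragments. A count of 0 in a WT library allows up to 3 fragments, or 0.203 FPKM. Against a floor of 3 fragments over the WT group, the 54 fragments summed over the Gm31629-/- mice were at least 18.0-fold higher, given the depths. That ratio leaves out the spread between mice. The fit called it (limma adjusted p = 0.0103), also in 6 of 6 fits without 1 mouse, but the gene passed the filter only through the Gm31629-/- group. Its fitted log2 fold change of 1.10 depends on the pseudocount and was 3.56 with a pseudocount of 0.1. Without mouse 1 it was 0.98 (limma adjusted p = 0.0225). As for Aldh1a2, the value of mouse 3 was the lowest of the 3 Gm31629-/- mice. The markers of enteric neurons and glia summed to 151, 244 and 58.7 FPKM in these mice, against 2.77 to 4.81 FPKM in WT mice. The mesothelial, dendritic cell and adipocyte sums had the same order of mice. The part of these cells in the level of Crabp1 was not tested.

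Crabp2 (ENSMUSG00000004885, chromosome 3, 87948666 to 87953376, plus strand), which delivers retinoic acid to its receptors, was barely detected, with 2 fragments in each Gm31629-/- mouse and 0, 0 and 2 in WT mice. No difference was detectable at this depth. Rbp2 (ENSMUSG00000032454, chromosome 9, 98486115 to 98509781, plus strand), the retinol-binding protein of absorptive enterocytes, was at 7.08, 10.8 and 9.07 FPKM in WT mice and at 62.3, 4.51 and 23.5 FPKM in Gm31629-/- mice. Gm31629-/- mice lay on both sides of the WT range, with mouse 1 highest and mouse 2 lowest. The log2 fold change was 1.05 with a standard error of 0.78 (95% interval -0.79 to 2.89, limma adjusted p = 0.307). Without mouse 2 it was 2.0 (limma adjusted p = 0.0119), and without mouse 1 it was 0.24. The colonocyte gene Car4 was likewise lowest in Gm31629-/- mouse 2, at 1335, 348 and 2050 FPKM in Gm31629-/- mice 1 to 3 against 355 to 441 FPKM in WT mice. Slc26a3, the chloride exchanger of surface colonocytes, was at 155, 14.7 and 129 FPKM against 19.0 to 49.5 FPKM.

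**Figure D3:**
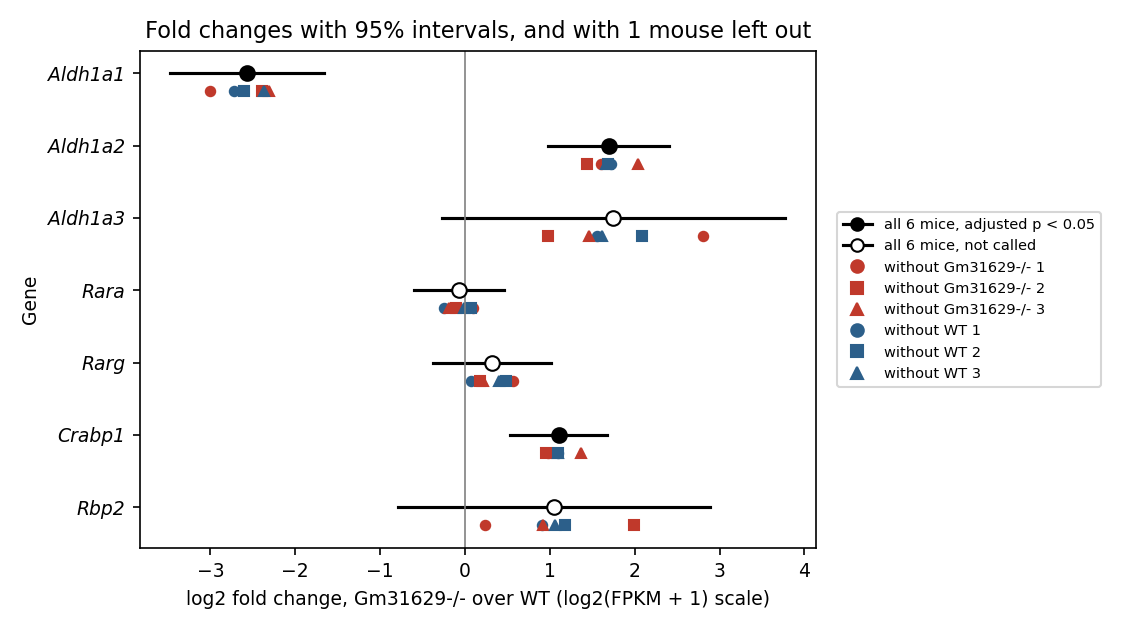
Log2 fold change of Gm31629-/- over WT on the log2(FPKM + 1) scale for the 7 genes tested, with 95% intervals (filled, called) and, beneath each, the value with 1 mouse left out. Aldh1a1, Aldh1a2 and Crabp1 lie away from 0 in every fit, whereas Aldh1a3 moves between 0.98 and 2.81 and Rbp2 between 0.24 and 2.0.

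The order of the levels thus differed. In WT mice, Aldh1a1 stood above all others without overlap, then followed Rara, Rbp2, Rarg and Aldh1a3, each of which overlapped its neighbour in that order. Aldh1a2 came next without overlapping Aldh1a3, and Crabp2, Rarb and Crabp1 were at or near 0. In Gm31629-/- mice, the order by mean was Aldh1a3, Rbp2, Rara, Rarg, Aldh1a1, Aldh1a2 and Crabp1, and each neighbour overlapped the next. Rarb and Crabp2 followed without overlap.

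The other genes of the retinoid pathway were taken from 7 lists of 59 genes besides the 9, of which 48 were tested. Of these, 18 were higher, 6 were lower and 24 were not called, with a median log2 fold change of 0.39 against 0.15 over all tested genes. Without Gm31629-/- mouse 1, 18 were higher and 7 lower, and 23 of the 24 called genes kept their call (the exception was Nr2f2). Of the 18 higher genes, 7 had a WT mean under 0.5 FPKM and passed the filter only through the Gm31629-/- group, which favours a higher call, so the counts are descriptions. Among the 40 genes with a WT mean of at least 0.5 FPKM, 11 were higher and 6 lower, with a median log2 fold change of 0.27. That limit in turn favours a lower call. Over all tested genes, without that limit on the WT mean, 28.9% were called higher, 14.6% lower and 43.5% in either direction. The counts of each list below have the same background, and no list was tested as a set.

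Genes of retinol uptake and transport were higher in 5 of 8 tested cases and lower in 0, also at an unadjusted p under 0.05 and by voom. Cd36 and Stra6 passed the filter only through the Gm31629-/- group, and without them 3 of 6 were higher. Cd36, a fatty acid and carotenoid transporter, was at 0.06 to 0.25 FPKM in WT mice and at 9.23, 18.7 and 7.61 FPKM in Gm31629-/- mice, without overlap. Its log2 fold change was 3.37 (limma adjusted p = 0.000467). Stra6, the receptor that takes up retinol from its carrier, rose from a mean of 0.171 to 2.68 FPKM (log2 fold change 1.51, limma adjusted p = 0.0193), a call lost when Gm31629-/- mouse 3 or any WT mouse was left out. Fabp5, which can carry retinoic acid to PPARD, rose from 1.40 to 9.69 FPKM (2.06, limma adjusted p = 0.00269). Rbp4, the plasma retinol carrier, had a log2 fold change of -0.12 (limma adjusted p = 0.792), which was positive without Gm31629-/- mouse 1, without WT mouse 1 and under epithelial scaling. Cd36 and Fabp5 are also expressed by adipocytes, endothelium, macrophages or stroma. All 10 endothelial markers were higher, at 69.6 to 149 against 4.05 to 10.1 FPKM summed, and 9 of 10 macrophage markers, at 598 to 1292 against 67.8 to 87.5 FPKM.

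In the list of ester and carotene handling, 3 of 7 tested genes were higher and 0 lower, also at an unadjusted p under 0.05. Bco1, which cleaves beta-carotene to retinaldehyde, was at 0.53, 0.48 and 0.56 FPKM in WT mice and at 1.90, 1.45 and 2.14 FPKM in Gm31629-/- mice. Each Gm31629-/- mouse was above each WT mouse (log2 fold change 0.88, limma adjusted p = 0.00498). Lpl and Lipe, lipases of adipocytes and other cells, had log2 fold changes of 1.17 (limma adjusted p = 0.0425) and 1.40 (limma adjusted p = 0.0153), and both calls were lost in fits without 1 WT mouse (each of the 3 for Lpl). Lpl was also not called after median ratio scaling (limma adjusted p = 0.0591) or without the filter (limma adjusted p = 0.0833). Pnlip had the largest log2 fold change (2.56, limma adjusted p = 0.304) and the highest mean, both from Gm31629-/- mouse 3 alone. Ces1d, an esterase and the next in abundance, was at 13.3, 28.1 and 36.7 FPKM in WT mice and 9.40, 31.8 and 19.9 FPKM in Gm31629-/- mice.

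Among 12 tested retinol dehydrogenases and retinaldehyde reductases, 2 were higher, 3 were lower and 7 were not called. Rdh16 rose from 7.94 to 26.1 FPKM (log2 fold change 1.59, limma adjusted p = 0.0009) and Rdh12, which passed the filter only through the Gm31629-/- group, had a log2 fold change of 0.79 (limma adjusted p = 0.00544). Adh5 (-1.14, limma adjusted p = 0.00172), Rdh11 (-0.96, limma adjusted p = 0.0109) and Dhrs4 (-0.61, limma adjusted p = 0.009996) were lower. Under epithelial scaling the calls of Rdh11 and Dhrs4 were lost. Rdh10, the main enzyme that makes retinaldehyde from retinol, was at 7.64, 14.5 and 8.80 FPKM in WT mice and at 10.8, 46.2 and 22.9 FPKM in Gm31629-/- mice. Its pattern over the mice was that of Aldh1a3, with mouse 1 in the WT range and mouse 2 highest. It was not called (log2 fold change 1.12, limma adjusted p = 0.101), but was without mouse 1 (1.62, limma adjusted p = 0.0152). Adh1, the most abundant of the list, was at 48.7, 45.7 and 42.3 FPKM in WT mice and at 149, 44.2 and 192 FPKM in Gm31629-/- mice. As for Rbp2, Gm31629-/- mouse 2 had the lowest value of its group. The log2 fold change of Adh1 was 1.23 (limma adjusted p = 0.0815). Dhrs3, which returns retinaldehyde to retinol, had a log2 fold change of 0.45 (limma adjusted p = 0.0820).

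Of the CYP26 enzymes that break down retinoic acid, only Cyp26b1 passed the filter, and only through the Gm31629-/- group. It was at 0.14, 0.17 and 0.23 FPKM in WT mice and at 1.89, 2.54 and 0.92 FPKM in Gm31629-/- mice, without overlap. The log2 fold change was 1.19 (limma adjusted p = 0.00724). As for Aldh1a2, mouse 2 was highest and mouse 3 lowest of the Gm31629-/- group. Cyp26a1, whose promoter is printed above, had 6, 7 and 0 fragments in Gm31629-/- mice and 0, 0 and 1 in WT mice. The groups thus overlapped. From the summed fragments (13 against 1) the ratio was 13.0, with a counting interval of 1.96 to 553 (95%, exact). That interval leaves out the spread between mice.

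Of 4 tested partner receptors, 2 were lower, 1 was higher and 1 was not called. Rxra, the retinoid X receptor most abundant here, fell from a mean of 42.4 FPKM in WT to 20.8 FPKM in Gm31629-/- mice (log2 fold change -0.99, limma adjusted p = 0.00469). Ppard, the partner receptor with the highest level, fell from 85.4 to 44.6 FPKM (-0.93, limma adjusted p = 0.00298). Under epithelial scaling, neither was called, and the log2 fold changes were -0.39 and -0.32. Rxrb had a log2 fold change of -0.16 (limma adjusted p = 0.393), which was 0.42 under epithelial scaling. Nr2f2, an orphan receptor of stroma and vessels, was called higher (0.49, limma adjusted p = 0.0415), a call lost in 5 of the 6 fits without 1 mouse. Of 8 corepressors and coactivators, 0 were called by limma and 0 by voom, and 2 were lower at an unadjusted p under 0.05. The largest value was that of Ncor1, also the most abundant of the list by mean, at -0.45 (limma adjusted p = 0.0647).

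Of 16 genes known to be induced by retinoic acid, 12 were tested, 9 were higher, 1 was lower and 2 were not called, with a median log2 fold change of 1.26. Of the 9, Cyp26b1, Stra6, Itga4, Meis1 and Meis2 passed the filter only through the Gm31629-/- group. Among the other 7 tested genes, 4 were higher and 1 was lower. Over all tested genes, 28.9% were called higher and 14.6% lower. Whether retinoic acid signalling differed between the genotypes was not tested. The list shares tested genes with the lists above, among them Cyp26b1, Dhrs3 and Stra6. Rarres2, which encodes the chemoattractant chemerin, rose from a mean of 0.910 to 15.3 FPKM (log2 fold change 3.09, limma adjusted p = 0.000281). Hic1, a transcriptional repressor of stromal cells, rose from 1.85 to 10.4 FPKM (1.91, limma adjusted p = 0.00306). The homeobox genes Meis1 (1.21, limma adjusted p = 0.00247), Meis2 (1.69, limma adjusted p = 0.00259) and Hoxa5 (1.39, limma adjusted p = 0.00188) were higher, and so was Itga4, the integrin of gut-homing lymphocytes (0.98, limma adjusted p = 0.00329). Several of these genes are expressed by smooth muscle and stromal cells, whose markers rose as given above. Of the lymphocyte markers, 9 of 10 of B cells and plasma cells and 7 of 10 of T cells were higher, and 0 lower. The part of any of these cells in the levels of the genes was not tested. Ccr9, the gut-homing receptor of the list, was below the filter. It was at 0.07 to 0.16 FPKM in Gm31629-/- mice and 0.06 to 0.08 FPKM in WT mice, with overlap. Isx, the intestinal homeobox gene through which retinoic acid lowers Bco1 and Scarb1, was at 137, 132 and 168 FPKM in WT mice and at 14.6, 13.1 and 16.5 FPKM in Gm31629-/- mice. The groups were far apart, with the largest log2 fold change of the list (-3.22, limma adjusted p = 0.000111). Bco1 and Scarb1 were both higher in the same mice (0.88 and 0.98, limma adjusted p = 0.00498 and 0.00686). Whether their levels were linked to that of Isx was not tested. Tgm2, the most abundant of the tested genes after Isx, had a log2 fold change of 0.53 (limma adjusted p = 0.443), with 138 FPKM in Gm31629-/- mouse 2 and 27.2 to 46.7 FPKM in the others of the group.

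**Figure D4:**
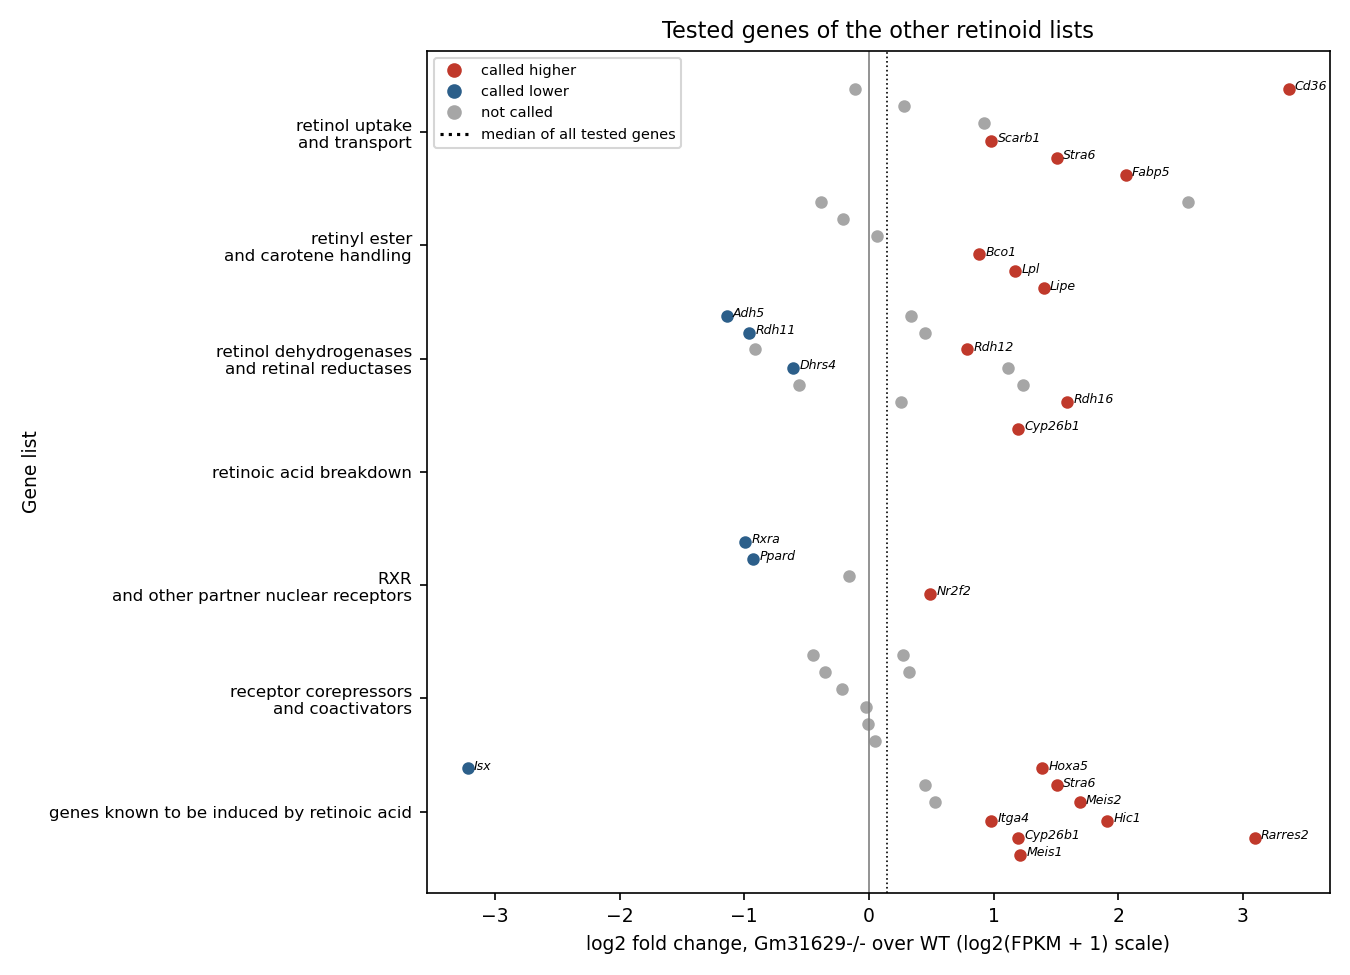
Log2 fold change of tested genes of the 7 other retinoid lists, Gm31629-/- over WT on the log2(FPKM + 1) scale, in red where called higher, blue where called lower and grey where not called, with a dotted line at the median of all tested genes. Cd36 and Rarres2 lie furthest to the right and Isx furthest to the left, and the corepressors and coactivators lie near 0.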

How the data were processed

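Groups and replicate numbers came from the labels (3 Gm31629-/- and 3 WT libraries, each a TruSeq RNA library from colon). The authors deposited FPKM values for 27546 genes. The submitters' processing notes name HISAT2 2.1.0, HTSeq 0.6.0 and GRCm38, and the annotation is not given in the sources used here. The study compared genotypes with DEGseq on counts, which was not repeated since FPKM values were deposited. Symbols, positions and exon lengths came from GENCODE M21 and matched 27488 identifiers. Fragments were recovered from the value of 1 fragment per gene and library. Among values of at most 20 fragments, 96.3% to 97.2% in each library lay within 0.1 of a whole number. Fragments summed over genes exceeded the recovered depth in each library, for which the cause was not tested. Ratio intervals and floors cover counting error only.

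log2(FPKM + 1) of 14657 genes with a mean of at least 0.5 FPKM was fitted with limma 3.58.1 (lmFit, eBayes with trend) in R 4.3.3. Tables were made with pandas 2.3.3 and SciPy 1.17.1, and plots with matplotlib 3.10.9. The genes and lists were chosen with earlier results of these data known. Named were all 9 genes, tested genes of the other lists (always the largest change and the highest mean), the 3 genes most like the member with the highest level and change, and abundant or defining markers. Cyp26a1 and Ccr9 of these lists were named though untested. On simulated data with 200 of 14657 genes changed, 71.0% were called at a log2 change of 1.5 (7 false calls) and 92.5% at 2.5 (13 false calls), and 0 with none changed. The spread between replicates was above counting noise, with a chi-square for each gene of 29.1 to 42.4 in WT and 88.4 to 131 in Gm31629-/- libraries. Alternatives were no filter, a minimum mean of 5 FPKM, a smaller pseudocount (0.1), TPM scale, median ratio scaling, eBayes without trend, the replicate number as a block, each mouse left out, and limma treat with a log2 threshold of 1. Scaling to 15 epithelial markers and limma's voom on recovered fragments were chosen after seeing the data. A gene of the lists is counted but not reported or drawn here.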

Additional observations from a re-analysis of the deposited data

How the results depend on the processing

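Of 110 alternative values for the 7 tested genes, 102 kept direction and side of the threshold. Aldh1a1 kept its call under every alternative run. The calls of Aldh1a2 and Crabp1 were lost with limma treat at a log2 threshold of 1 (adjusted p = 0.253 and 1), and both genes drop out at a mean of at least 5 FPKM. Called retinaldehyde dehydrogenases numbered 2, but 1 at a mean of at least 5 FPKM and with treat, and 2 to 3 with 1 mouse left out. Called receptors numbered 0, but 1 without a filter (Rarb) and 1 with epithelial scaling (Rarg). Called binding proteins numbered 1, but 0 at a mean of at least 5 FPKM and with treat, and 1 to 2 with 1 mouse left out (2 without Gm31629-/- mouse 2). Other retinoid genes called higher numbered 18, but 7 at a mean of at least 5 FPKM, 2 with treat, 29 with epithelial scaling and 14 to 18 with 1 mouse left out. Those called lower numbered 6, but 1 with treat, 2 with epithelial scaling and 5 to 7 with 1 mouse left out. Over all genes, 4238 were higher, but 1405 at a mean of at least 5 FPKM (fewer genes were tested), 795 with treat, 7468 with epithelial scaling and 2793 to 4219 with 1 mouse left out (2793 without WT mouse 3). Lower were 2138, but 3634 with median ratio scaling, 117 with treat, 499 with epithelial scaling and 981 to 1977 with 1 mouse left out (981 without WT mouse 3, 1265 without WT mouse 1). Calls were 48.0% higher at a mean of at least 5 FPKM and 93.7% with epithelial scaling. Voom on recovered fragments called 4275 higher and 2089 lower. Signs changed for genes not called, namely Rara (-0.25 to 0.095 with 1 mouse left out and 0.50 with epithelial scaling), Rbp4 (-0.37 to 0.24 with 1 mouse left out and 0.43 with epithelial scaling), Rxrb (0.42) and Ncor1 (0.12) with epithelial scaling, and Tgm2 (-0.11 without Gm31629-/- mouse 2, up to 1.04 without mouse 1). Same-numbered mice did not deviate together (r = 0.0358, -0.108 and 0.0141), so the numbers were not taken as pairs. With the replicate number as a block, 3875 genes were higher and 1514 lower, no call among the 9 genes changed, Rdh10 was called (limma adjusted p = 0.0245) and Nr2f2 was not (limma adjusted p = 0.0816). Causes other than those named were not tested. With 3 mice a group, intervals for Aldh1a3 and Rbp2 span several-fold changes, and Rarb, Crabp1 and Crabp2 rest on few fragments.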

Other observations

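Pnlip, the pancreatic lipase on the list of ester handling, was at 198 FPKM in Gm31629-/- mouse 3 and at most 0.04 FPKM in the other 5 mice. Other genes of pancreatic acinar cells, looked at after Pnlip was seen, stood high in the same library, among them Ctrb1 at 1080 FPKM, Cela1 at 389 FPKM and Prss2 at 264 FPKM. The summed level of 12 such genes was 2861 FPKM in that mouse and 50.2 to 64.9 FPKM in the other 5. Without this mouse, the log2 fold changes of Aldh1a1, Aldh1a2 and Crabp1 were -2.30, 2.04 and 1.37, and each kept its call.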
